A study of Mus musculus with 60 samples.

Results

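Collagens are the triple-helical proteins of the extracellular matrix, and their genes were taken here as every gene whose symbol is Col, a number, the letter a and a number. This rule found 43 of the 16994 gene symbols that appear in the 12 peak lists of the series, 11 of them fibrillar collagens and 32 other collagens. The annotation used here (GENCODE, mouse GRCm38) holds 44 such genes, and the 44th, Col7a1, which encodes the anchoring fibrils of skin, had no assigned peak in any list.

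The study compared young male Emx1-NuTRAP mice that had running wheels from postnatal day 21 to 41 (exercised) with sedentary mice of the same genotype, and profiled the hippocampus by CUT&RUN, in which an antibody-tethered nuclease releases the DNA around a histone mark. All mice carried the Emx1-driven Cre and the NuTRAP reporter, which tags the nuclear envelope of cells with a history of Emx1 expression, mainly excitatory neurons, so that other cells are covered only as far as they came through the isolation. The labels give 60 samples in 18 groups: each antibody (H4K8ac, H3K27me3 or the control IgG) and condition had 4 samples of the simultaneous isolation from both hippocampi (SIT) and 3 each of a separate isolation from the left or the right hippocampus. The deposited lists hold 1 set of peaks per mark, condition and arm (SIT, left or right), with positions and gene assignments but no heights, read counts or separate samples, so the depth behind a peak is unknown, no value carries a replicate error, and a mark in few nuclei cannot be told apart from a weak mark in many. The 20 IgG samples have no list of their own.

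Fibrillar collagens form the cross-banded fibres of connective tissue, type IV collagens the sheet of the basement membrane around vessels and beneath the pia, and the remaining classes decorate fibres, link cells to matrix or span the cell membrane. Most fibrillar collagens are products of fibroblasts, bone and cartilage, whereas several membrane-spanning and fibre-associated members are known from neurons. H4K8ac, an acetylation of histone H4, lies at active promoters and enhancers, and H3K27me3, the methylation left by Polycomb, covers silenced developmental genes, often as broad domains.

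Start-site windows of 6 collagen genes are shown first because they set starts that H3K27me3 covered in every list beside starts with neither mark. Each runs from 250 bases before to 50 bases after a RefSeq start site on GRCm38.p6, in the sense of the gene, with every CG dinucleotide in capitals. The Col4a4 window also holds the start of its neighbour Col4a3, and the Col4a1 window that of Col4a2, since each pair is read outward from a shared start region.
Col4a4 (chr1:82586800-82587099, minus strand): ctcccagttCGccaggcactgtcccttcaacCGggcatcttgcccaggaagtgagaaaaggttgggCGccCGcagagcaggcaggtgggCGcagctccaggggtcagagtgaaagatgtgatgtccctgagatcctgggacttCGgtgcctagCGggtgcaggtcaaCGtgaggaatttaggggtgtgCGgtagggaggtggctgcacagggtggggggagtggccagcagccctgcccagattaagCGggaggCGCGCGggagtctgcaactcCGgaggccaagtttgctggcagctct
Col4a1 (chr8:11312777-11313076, minus strand): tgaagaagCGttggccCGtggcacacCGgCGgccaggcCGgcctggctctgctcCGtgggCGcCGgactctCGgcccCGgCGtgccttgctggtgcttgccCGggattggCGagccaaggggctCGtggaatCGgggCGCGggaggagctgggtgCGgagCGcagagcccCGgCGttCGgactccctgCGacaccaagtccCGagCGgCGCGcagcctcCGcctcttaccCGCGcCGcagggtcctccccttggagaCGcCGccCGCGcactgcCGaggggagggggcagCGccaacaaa
Col8a2 (chr4:126286544-126286843, plus strand): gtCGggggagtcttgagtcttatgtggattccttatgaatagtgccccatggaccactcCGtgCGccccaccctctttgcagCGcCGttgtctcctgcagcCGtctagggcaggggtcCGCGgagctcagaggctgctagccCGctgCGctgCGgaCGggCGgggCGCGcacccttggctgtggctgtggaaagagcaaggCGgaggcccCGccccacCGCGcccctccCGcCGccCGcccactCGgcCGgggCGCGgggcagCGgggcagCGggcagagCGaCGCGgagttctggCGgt
Col24a1 (chr3:145292222-145292521, plus strand): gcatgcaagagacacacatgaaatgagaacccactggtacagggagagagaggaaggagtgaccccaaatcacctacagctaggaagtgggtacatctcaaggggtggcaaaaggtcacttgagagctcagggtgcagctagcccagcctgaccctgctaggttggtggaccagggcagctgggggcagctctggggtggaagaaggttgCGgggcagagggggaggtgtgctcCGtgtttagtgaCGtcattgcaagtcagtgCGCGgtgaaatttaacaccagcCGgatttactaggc
Col1a2 (chr6:4505368-4505667, plus strand): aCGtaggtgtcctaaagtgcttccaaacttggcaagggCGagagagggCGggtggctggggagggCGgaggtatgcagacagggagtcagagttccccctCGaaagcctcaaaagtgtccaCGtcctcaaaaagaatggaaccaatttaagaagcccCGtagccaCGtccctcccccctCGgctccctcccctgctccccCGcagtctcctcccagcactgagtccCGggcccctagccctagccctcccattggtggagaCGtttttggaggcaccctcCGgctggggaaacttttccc
Col3a1 (chr1:45311288-45311587, plus strand): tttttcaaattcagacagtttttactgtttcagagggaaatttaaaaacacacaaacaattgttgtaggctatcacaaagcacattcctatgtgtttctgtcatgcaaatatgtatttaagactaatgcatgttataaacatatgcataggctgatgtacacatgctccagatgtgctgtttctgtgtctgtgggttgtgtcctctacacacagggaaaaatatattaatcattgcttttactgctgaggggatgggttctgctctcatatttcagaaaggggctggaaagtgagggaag

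The start sites of Col4a3, Col4a4, Col8a2, Col24a1 and Col1a2 lay inside an H3K27me3 peak in all 6 H3K27me3 lists. The start sites of Col4a1, Col4a2 and Col3a1 lay inside a peak of neither mark in any list. CG number did not order these windows: the shared Col4a1 window had 37 CG and no mark, Col8a2 had 32 and H3K27me3 throughout, Col24a1 had 6 and H3K27me3 throughout, and Col3a1 had 0 and no mark at its start.

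Across the family, H3K27me3 was frequent at start sites and H4K8ac was rare there. The annotated start of 24 of the 44 collagen genes lay inside an H3K27me3 peak in at least 1 list (54.5%), against 12.1% of 21938 protein-coding genes. In all 6 lists this held for 12 of 44 (27.3%), against 4.24% of protein-coding genes. The 12 were Col1a2, Col2a1, Col24a1 and Col27a1 among the fibrillar collagens and Col4a3, Col4a4, Col6a6, Col8a2, Col12a1, Col14a1, Col18a1 and Col26a1 among the others. Col4a3 and Col4a4, which start 72 bp apart, count as 2 of the 12, and Col4a5 and Col4a6, which start 1309 bp apart, as 2 of the 24. H4K8ac showed the opposite: the start of 4 of 44 genes lay inside an H4K8ac peak in at least 1 list (9.09%), against 26.4% of protein-coding genes. In all 6 lists the count was 0 of 44, against 1.07%, a share so low that 0 of 44 does not set collagens apart. The 4 genes were Col8a1 and Col20a1 (2 lists each) and Col11a1 and Col19a1 (1 list each). The annotation mattered for Col25a1, whose RefSeq start lies 49344 bp inside the GENCODE gene and was within an H4K8ac peak in 3 lists, both SIT lists and the sedentary right list. These shares are descriptions of 1 gene family and have no test.

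**Figure D1:**
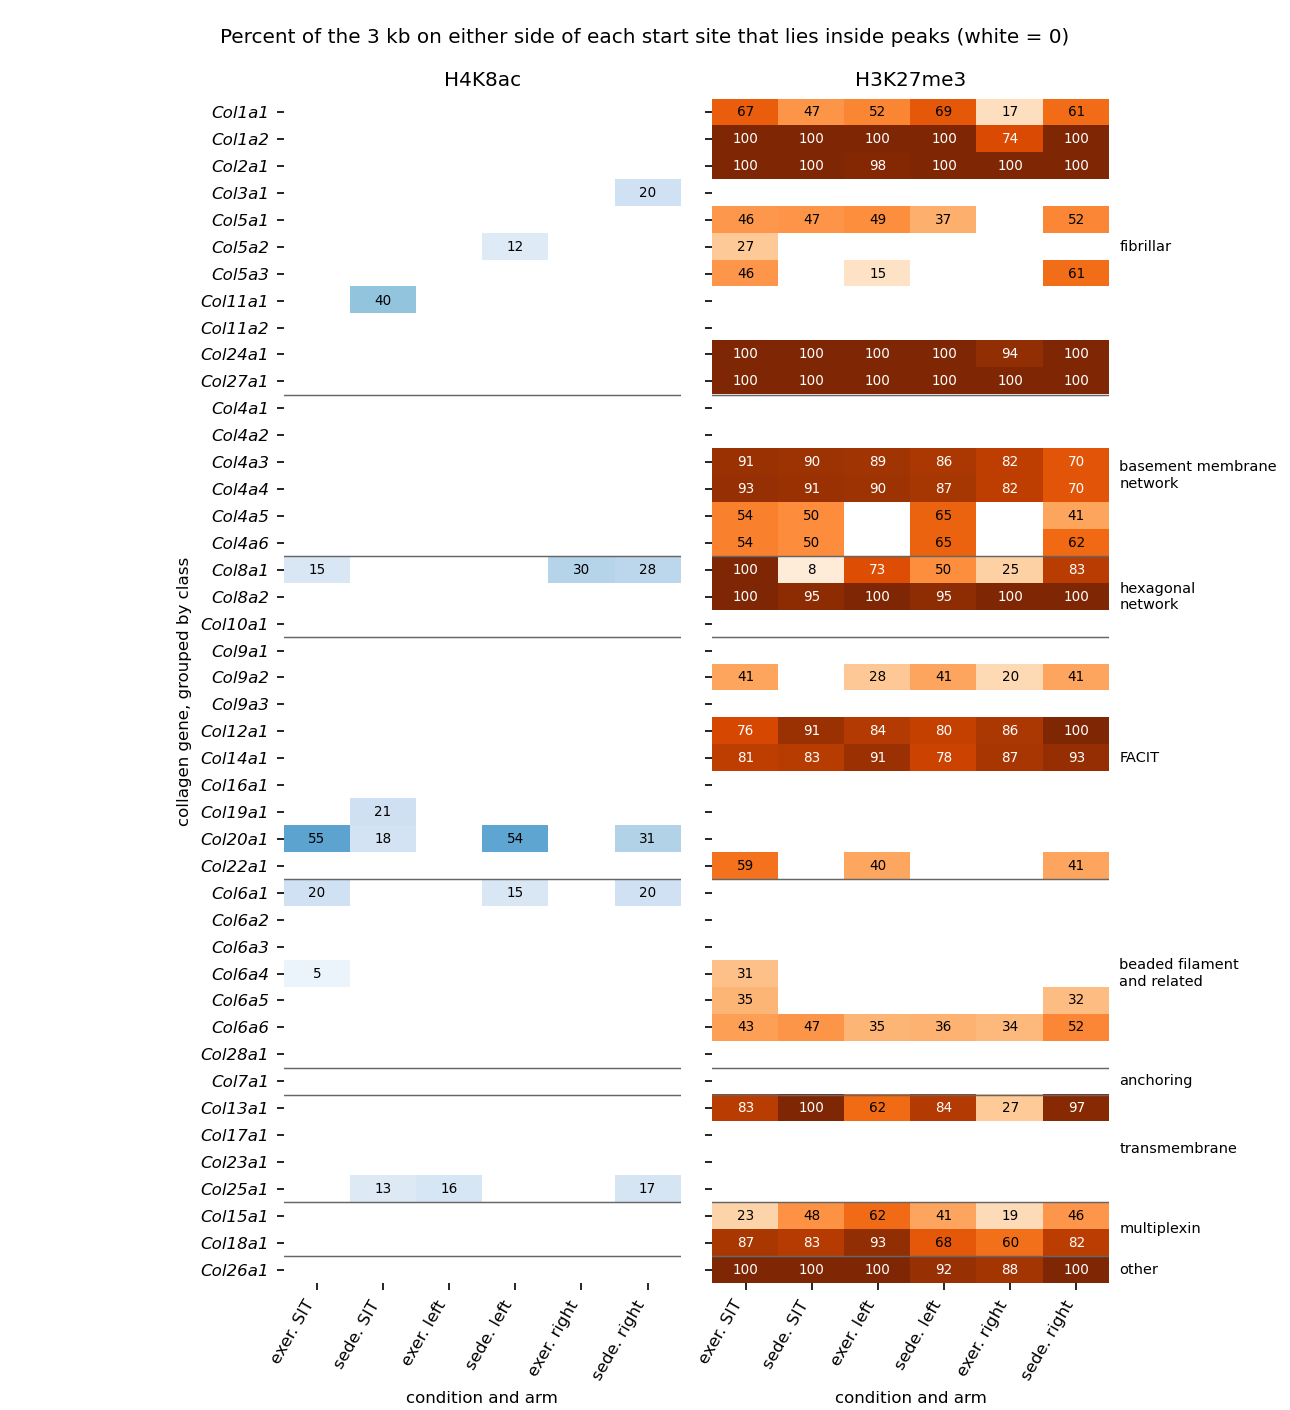
Percent of the bases within 3 kb on either side of each collagen gene's start site that lie inside H4K8ac peaks (left, blue) or H3K27me3 peaks (right, orange), with genes in rows by class and the 6 lists of each mark in columns (exer., exercised; sede., sedentary). Numbers give the percent and white cells are 0. H3K27me3 fills the window of Col27a1 in every list and most of it in Col24a1, Col2a1, Col8a2 and Col26a1, while H4K8ac does not pass 54.5% in any cell.

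RefSeq windows were given for 35 of the 44 genes, and Col12a1, Col14a1, Col1a1, Col22a1, Col26a1, Col2a1, Col4a3, Col5a2 and Col9a3 had none. Over the 35 windows the median was 12 CG and 60% G+C, against 14 CG and 57% over the windows of 16539 protein-coding genes. The 7 windows inside H3K27me3 in all 6 lists had a median of 14 CG, the 10 inside it in 1 to 5 lists 10.5 and the 18 outside it in every list 7.5. Over all genes the corresponding medians were 15, 8 and 15. Of the 9 collagen windows with at least 20 CG (the search was for the letters CG, which read the same on both strands), 4 had their RefSeq start inside H3K27me3 in at least 1 list (44.4%) and 1, Col25a1, inside H4K8ac (11.1%). Windows with at least 20 CG make up 37.7% of all, and among them 9.11% had H3K27me3 and 35.1% had H4K8ac at the start in at least 1 list. Of the 26 collagen windows under 20 CG, 13 had H3K27me3 (50%, against 13.7% of all such windows) and 4 had H4K8ac (15.4%, against 22.2%). These collagen shares have no test.

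By assigned peaks, H4K8ac reached collagen genes about as often as it reached genes in general. A gene counts as listed when the authors' annotation gave it at least 1 peak. In the SIT arm 27 of 43 collagen genes were listed in the exercised mice (62.8%, against 63.2% of all 16994 genes) and 22 in the sedentary mice (51.2%, against 51%). In the left arm 13 were listed in the exercised mice (30.2%, against 30%) and 22 in the sedentary mice (51.2%, against 60.1%). In the right arm 15 were listed in the exercised mice (34.9%, against 34.1%) and 24 in the sedentary mice (55.8%, against 49%). The collagen share was below that of all genes in the exercised SIT and sedentary left lists and at or above it in the other 4.

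H3K27me3 reached a larger share of collagen genes than of genes in general in all 6 lists. In the SIT arm it was assigned to 28 of 43 collagen genes in the exercised mice (65.1%, against 38.1% of all genes) and 18 in the sedentary mice (41.9%, against 22.5%). The left arm had 23 in the exercised mice (53.5%, against 30.6%) and 21 in the sedentary mice (48.8%, against 27.5%). The right arm had 18 in the exercised mice (41.9%, against 20.6%) and 26 in the sedentary mice (60.5%, against 35.4%). Collagen genes are long, with a median length of 114 kb against 17.4 kb over protein-coding genes. The role of length in these shares was not tested. The start-site counts above use 1 position per gene.

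Measured per base, collagen genes held less H4K8ac than genes in general in every list and more H3K27me3. H4K8ac peaks covered between 0.630% and 2.54% of the bases of the 44 collagen genes in the 6 lists, against 1.39% to 4.40% of all protein-coding gene bases, and the collagen value was the lower of the pair each time. H3K27me3 peaks covered between 3.26% and 9.61% of collagen gene bases, against 1.50% to 4.69% of all. Much of this H3K27me3 sat in Col24a1 and Col27a1, which together were covered over 28.7% to 62.5% of their length. Without them, a choice made after the values were seen, the other collagen genes were covered over 1.32% to 5.57%, above the value of all genes in 4 lists and below it in the sedentary SIT and exercised right lists.

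No collagen gene was listed in all 6 lists of both marks, and the share of all genes that were was not computed. H4K8ac was listed in all 6 lists at 9 of 43 collagen genes (20.9%, against 19.3% of all genes), namely Col4a2, Col5a2, Col6a1, Col6a3, Col9a1, Col20a1, Col22a1, Col23a1 and Col25a1. H3K27me3 was listed in all 6 at 16 of 43 (37.2%, against 16.5% of all genes), namely Col1a1, Col1a2, Col2a1, Col11a1, Col24a1 and Col27a1 among the fibrillar collagens and Col4a3, Col6a6, Col8a1, Col8a2, Col12a1, Col13a1, Col14a1, Col15a1, Col18a1 and Col26a1 among the others. H4K8ac was listed in at least 1 list at 32 of 43 collagen genes (74.4%, against 79.9% of all genes), and H3K27me3 at 32 of 43 (74.4%, against 43.5%).

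**Figure D2:**
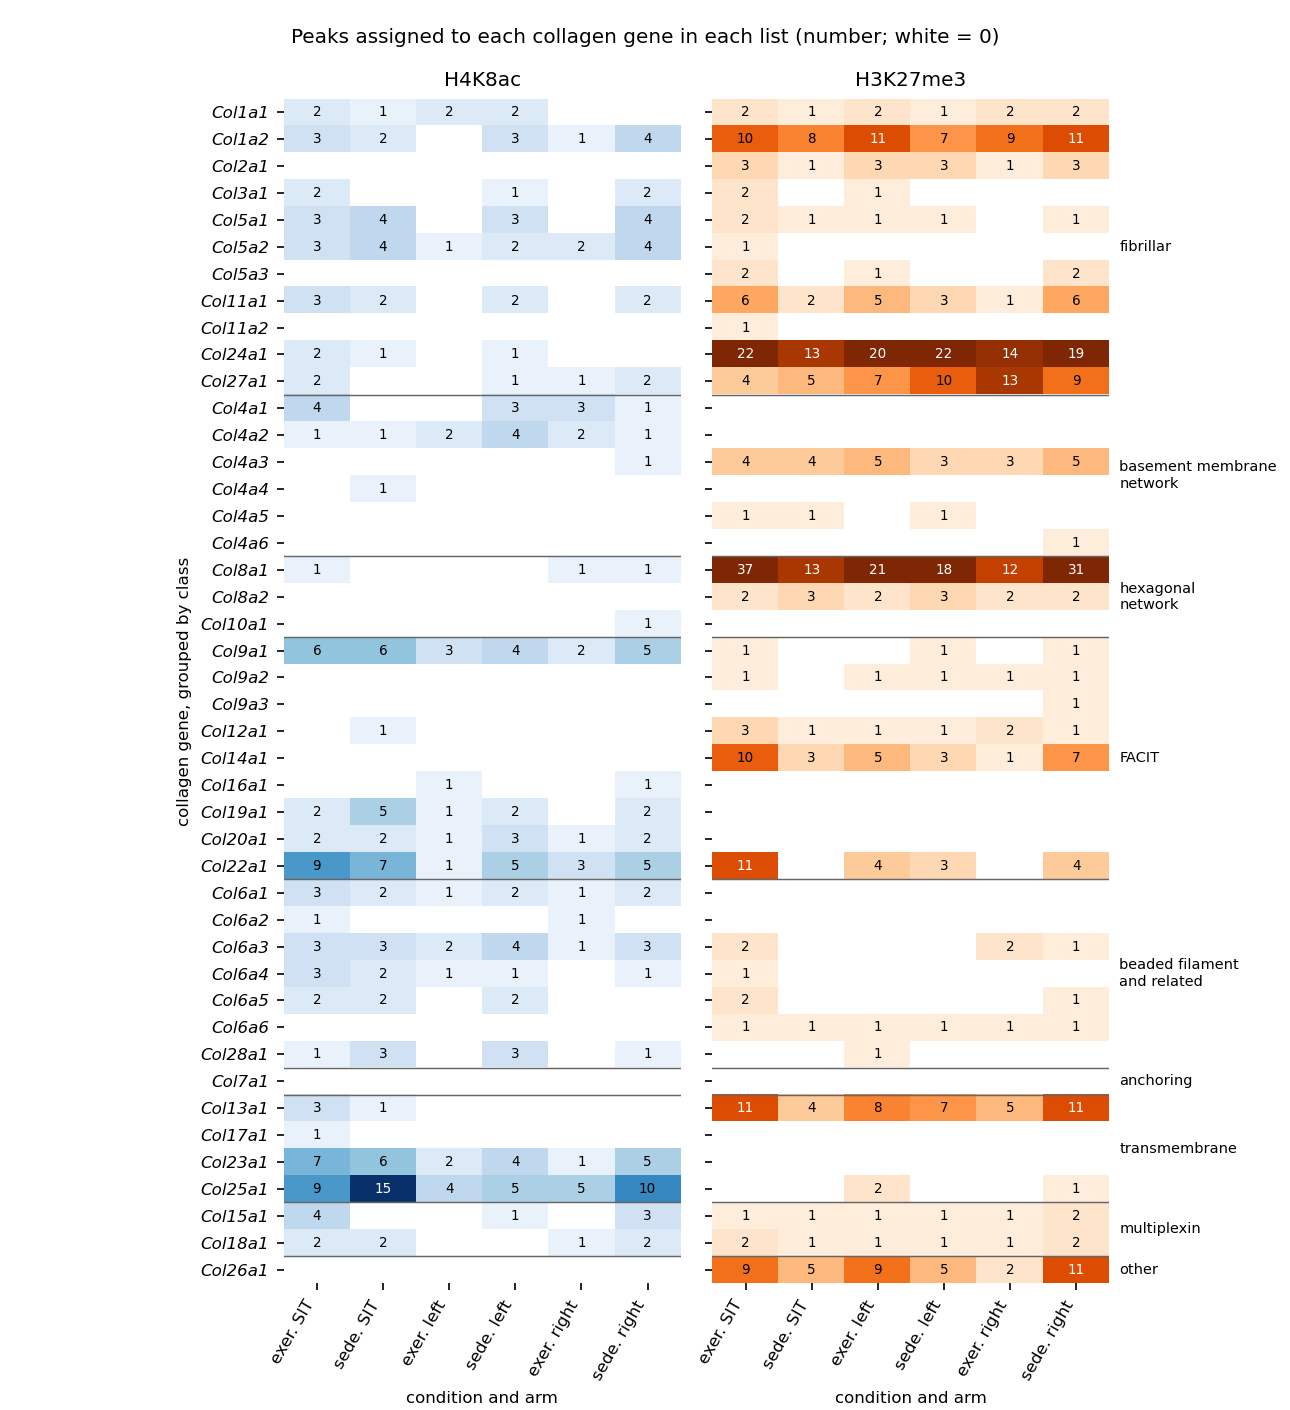
Number of peaks assigned to each of the 44 annotated collagen genes in each list, with genes in rows by class, H4K8ac on the left (blue), H3K27me3 on the right (orange) and condition and arm in columns (exer., exercised; sede., sedentary). White cells are 0 and the colour stops deepening at 15 peaks. Col25a1 has the most H4K8ac peaks and Col8a1 and Col24a1 the most H3K27me3 peaks.

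Among the fibrillar collagens, the chains of type I collagen, the fibre of bone, skin and tendon, carried H3K27me3 at or just before their starts in both conditions. Col1a1 had 2 and 1 H3K27me3 peaks in the exercised and sedentary SIT lists, 2 and 1 in the left lists and 2 and 2 in the right lists. Each list had 1 of these at the promoter, which held the start itself in 4 lists and ended at -204 bp from it in sedentary SIT and at -2003 bp in exercised right. H4K8ac peaks of Col1a1 numbered 2 and 1 in SIT, 2 and 2 in left and 0 and 0 in right, and all 7 were intergenic, 53.5 to 65.7 kb upstream, with none in the gene. Col1a2 had 10 and 8 H3K27me3 peaks in SIT, 11 and 7 in left and 9 and 11 in right, of which 47 of 56 lay outside the gene and its 3 kb flanks, as far as 163 kb from the start. Its start was inside a peak in all 6 lists, and 73.9% to 100% of the 3 kb around it was covered. H4K8ac gave Col1a2 3 and 2, 0 and 3, and 1 and 4 peaks in the same order, 12 of 13 of them outside the gene and its flanks.

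Type III collagen, the fibre of vessel walls and other distensible tissue, is encoded by Col3a1 (chr1:45311538-45349706), and its peaks were few and mostly remote. H3K27me3 gave it 2 peaks in the exercised SIT list, 1 in the exercised left list and 0 in the other 4 lists. All 3 lay 273.5 to 280.5 kb upstream, and no H3K27me3 peak overlapped the gene or its 3 kb flanks in any list. H4K8ac gave Col3a1 2 and 0 peaks in SIT, 0 and 1 in left and 0 and 2 in right. Relative to the start these lay at -280.0 kb and -33.3 kb in the exercised SIT list, at -33 kb in the sedentary left list, and at -192.4 kb and 1.798 kb in the sedentary right list. Only the last of them touched the gene. In the exercised SIT list the remote peaks of both marks overlapped each other by 773 bp (H4K8ac at chr1:45030285-45031516 and H3K27me3 at chr1:45028830-45031057). Col3a1 was therefore listed as gained with exercise for H4K8ac in SIT and as lost in the left and right arms. The peaks near -33 kb in the exercised SIT and sedentary left lists overlapped, so the gain in SIT and the loss in left shared this place.

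**Figure D3:**
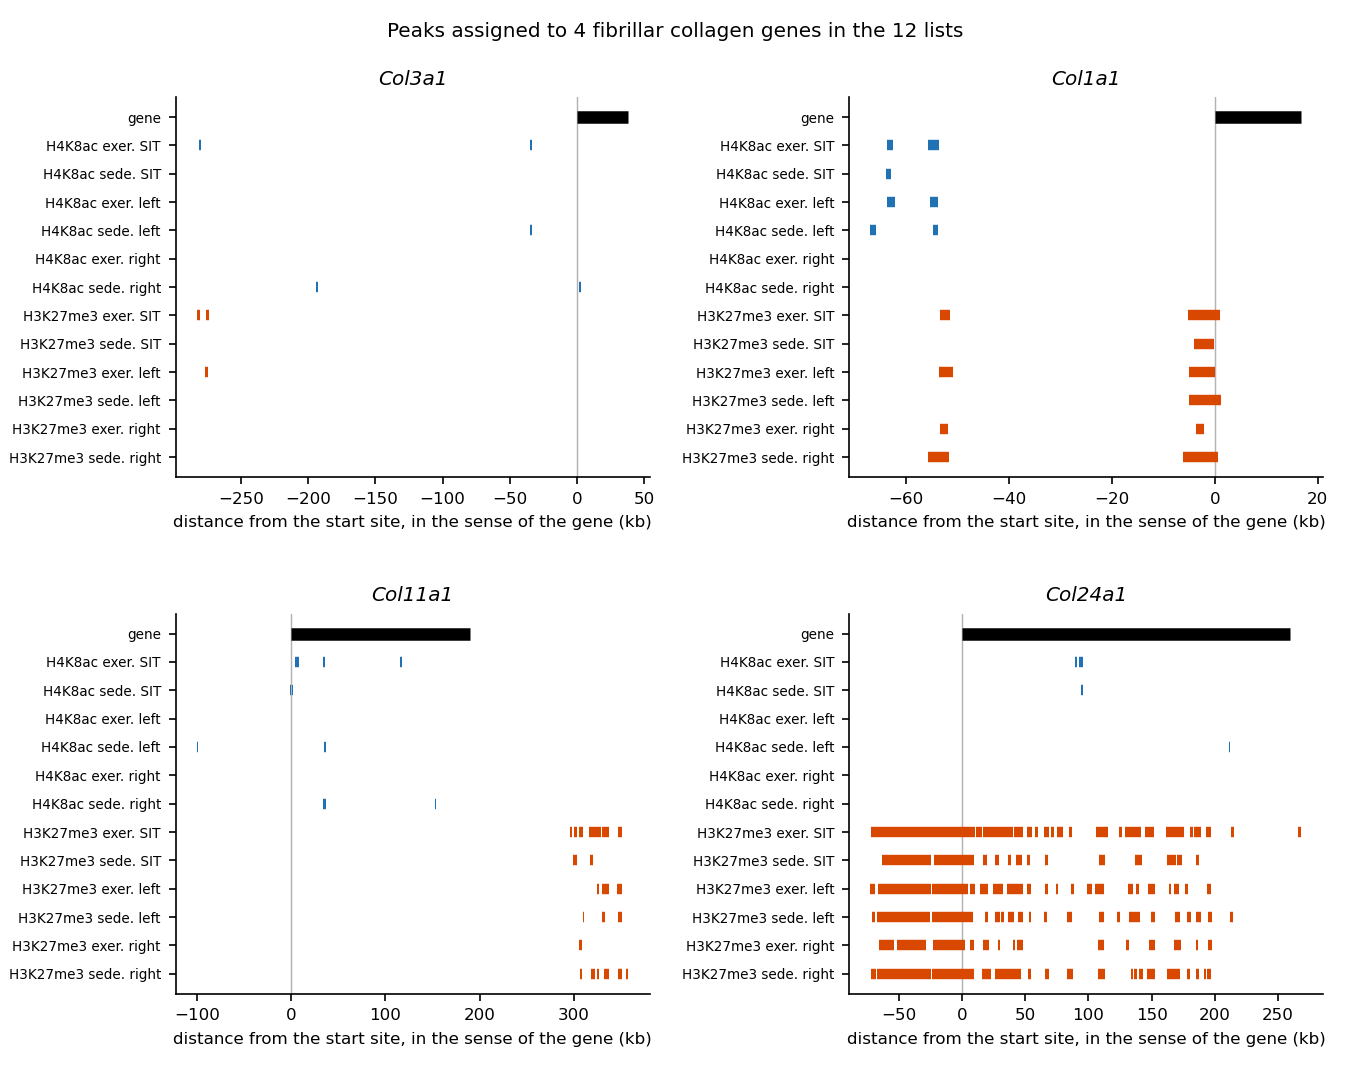
Peaks assigned to Col3a1, Col1a1, Col11a1 and Col24a1 in the 12 lists, by distance from the annotated start site in kb in the sense of the gene. Rows are lists (exer., exercised; sede., sedentary), blue bars are H4K8ac peaks, orange bars are H3K27me3 peaks and the black bar is the gene. H3K27me3 peaks of Col3a1 lie 273.5 to 280.5 kb upstream and those of Col11a1 beyond the gene's far end, while Col1a1 and Col24a1 have some at or beside the start in every list.

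Type II collagen, the fibre of cartilage, was marked by H3K27me3 alone. Col2a1 had 3 and 1 H3K27me3 peaks in SIT, 3 and 3 in left and 1 and 3 in right, no H4K8ac peak in any list, and 98.2% to 100% of the 3 kb around its start covered. Col24a1 and Col27a1, minor fibrillar collagens of developing bone and cartilage, held the broadest domains. Col24a1 had 22 and 13 H3K27me3 peaks in SIT, 20 and 22 in left and 14 and 19 in right, covering 15.3% to 48.8% of its 259.5 kb. Col27a1 had 4 and 5, 7 and 10, and 13 and 9 peaks in the same order, but these covered 57.5% to 92.0% of its 121.0 kb. The widest H3K27me3 peak of any collagen gene, 112856 bp (chr4:63177272-63290127), was at Col27a1 in the exercised SIT list, where fewer peaks meant wider ones. Between 397 and 612 of the 21938 protein-coding genes, or 1.81% to 2.79%, were covered over a larger share than Col27a1 in a given list.

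H4K8ac also occurred inside the Col27a1 gene. Col27a1 had 2 and 0 H4K8ac peaks in SIT, 0 and 1 in left and 1 and 2 in right, and 5 of the 6 were annotated to a promoter although they lay inside the gene. In 3 lists H4K8ac and H3K27me3 peaks of matching lists overlapped, by 1394 bp and 2074 bp in exercised SIT, 577 bp in exercised right and 918 bp in sedentary left. Of the 328 H4K8ac peaks assigned to collagen genes in the 6 lists, 7 overlapped an H3K27me3 peak in the matching list (2.13%, against 0.378% of all H4K8ac peaks, with no test), 4 at Col27a1, 2 at Col8a1 and 1 upstream of Col3a1. Col24a1 had 2 and 1, 0 and 1, and 0 and 0 H4K8ac peaks, all intronic.

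Type V collagens, which set the diameter of type I fibres, differed by chain. Col5a2 had H4K8ac in every list (3 and 4 peaks in SIT, 1 and 2 in left, 2 and 4 in right), 12 of 16 in introns, and 1 H3K27me3 peak, in exercised SIT, that began 226 bp inside the gene. Col5a1 had H4K8ac in 4 lists (3 and 4, 0 and 3, 0 and 4) and H3K27me3 in 5 (2 and 1, 1 and 1, 0 and 1), with 5 of the 6 H3K27me3 peaks at the promoter. Col5a3 had H3K27me3 only (2 and 0, 1 and 0, 0 and 2). Type XI collagens, the minor chains of cartilage fibres, had no H3K27me3 inside the gene in any list. Col11a1 was listed for H3K27me3 in all 6 lists (6 and 2, 5 and 3, 1 and 6 peaks), but all 23 peaks lay beyond the end of the gene, 161.2 to 221.1 kb from the annotated start used for the assignment, and none touched the gene or its flanks. Its H4K8ac peaks (3 and 2, 0 and 2, 0 and 2) lay in the gene in 8 of 9 cases. Col11a2 had 1 H3K27me3 peak, in exercised SIT, 13.9 kb away, and no H4K8ac.

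Set against the other collagens, fibrillar collagens were listed more often for H3K27me3 in all 6 lists and not for H4K8ac. For H3K27me3, 11 of 11 fibrillar and 17 of 32 other collagens were listed in exercised SIT, 7 and 11 in sedentary SIT, 9 and 14 in exercised left, 7 and 14 in sedentary left, 6 and 12 in exercised right and 8 and 18 in sedentary right. The difference in percent listed was 27.9 ± 12.5 percentage points (SD over the 6 lists, which share the same genes). For H4K8ac it was 3.13 ± 16.4 and took both signs. With distal intergenic peaks left out the H3K27me3 difference was 14.3 ± 6.23 points. Counting any peak that overlaps the gene or its 3 kb flanks, which also adds peaks assigned to other genes at Col4a4, Col4a5 and Col4a6, it was 9.61 ± 5.67 points, and under both settings it was above 0 in each list. The mean H4K8ac difference turned to -8.90 ± 9.38 and -12.0 ± 8.38 points under these settings, with 5 of 6 lists below 0 in each. Fibrillar gene bases were covered over 11.5% to 25.8% and other collagens over 1.28% to 5.70%, but without Col24a1 and Col27a1 the fibrillar value was 1.59% to 4.75%.

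**Figure D4:**
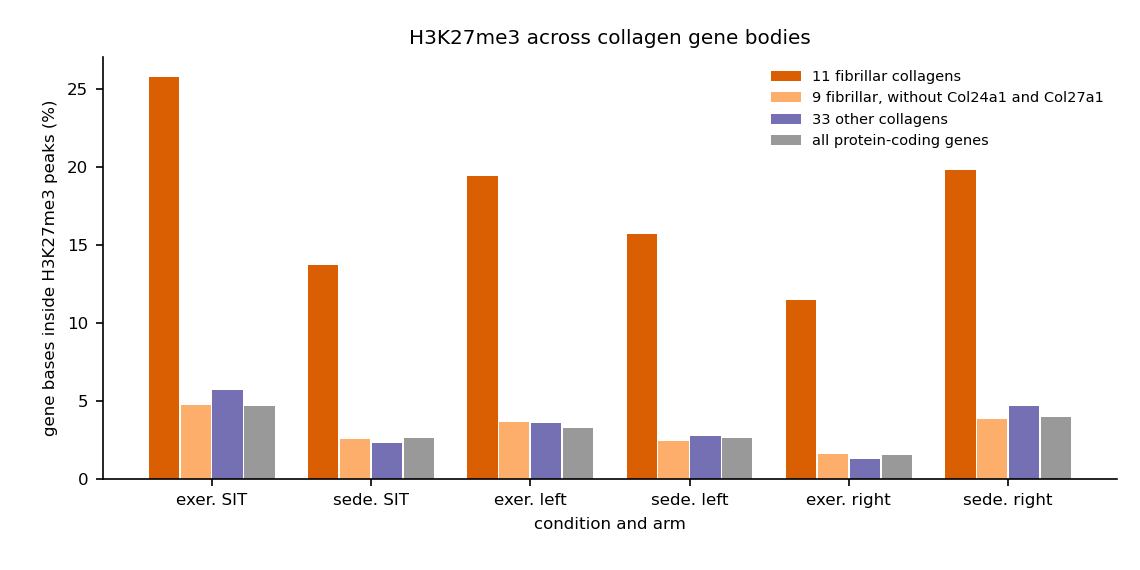
Percent of gene bases inside H3K27me3 peaks in the 6 H3K27me3 lists, for the 11 fibrillar collagens, the 9 left without Col24a1 and Col27a1, the 33 other collagens and all protein-coding genes (1 pooled list per bar, no error). The fibrillar bars reach 11.5% to 25.8%, and without Col24a1 and Col27a1 they stand at 1.59% to 4.75%, near the other collagens and all genes.

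The 3 gene pairs of type IV collagen, the basement membrane network, each share a start region but had different marks. Col4a3 and Col4a4 start 72 bp apart on chromosome 1, and H3K27me3 covered both starts in all 6 lists and 70.3% to 92.5% of the 3 kb around them. The authors' assignment gave that peak to Col4a3 (4 and 4 peaks in SIT, 5 and 3 in left, 3 and 5 in right) and none to Col4a4, which by overlap had H3K27me3 in 6 lists. Col4a5 and Col4a6 start 1309 bp apart on chromosome X, and both starts were inside H3K27me3 in 3 lists, with 1 peak assigned to Col4a5 in each of exercised SIT, sedentary SIT and sedentary left and 1 to Col4a6 in sedentary right. Col4a1 and Col4a2, the chains of nearly every basement membrane, start 21 bp apart on chromosome 8 and had no H3K27me3 in any list. They had H4K8ac instead, 4 and 0, 0 and 3, and 3 and 1 peaks at Col4a1 and 1 and 1, 2 and 4, and 2 and 1 at Col4a2, none of it within 3 kb of the shared start. So a Polycomb mark was at the first pair throughout, at the second in some lists and at the third in none.

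Col8a1 and Col8a2, network collagens of vessel walls and the cornea, were covered by H3K27me3 in every list. Col8a1 had the most H3K27me3 peaks of any collagen gene, 37 and 13 in SIT, 21 and 18 in left and 12 and 31 in right. Of these 132 peaks, 110 lay outside the gene and its flanks, up to 324.7 kb from the start they were assigned by. Inside the gene 53.6% and 14.6% of bases were covered in SIT, 26.1% and 18.9% in left and 3.67% and 36.6% in right. It also had 1 H4K8ac peak in each of 3 lists, over the start in exercised right and sedentary right and at -114 bp from it in exercised SIT, and the peaks of exercised SIT and sedentary right overlapped H3K27me3. Col8a2 had 2 or 3 H3K27me3 peaks in every list, all 14 at the promoter, and no H4K8ac. Col10a1, of growth-plate cartilage, had 1 H4K8ac peak and no H3K27me3.

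Col25a1, a neuronal membrane collagen whose shed part is found in amyloid plaques, had the most H4K8ac peaks, 9 and 15 in SIT, 4 and 5 in left and 5 and 10 in right, of which 42 of 48 were intronic and 6 at a promoter. One region within it (chr3:130336684-130340171) held an H4K8ac peak in all 6 lists. H3K27me3 was assigned to Col25a1 in exercised left (2 peaks) and sedentary right (1 peak) only. Col23a1, another membrane collagen, had 7 and 6, 2 and 4, and 1 and 5 H4K8ac peaks, 24 of 25 intronic, and no H3K27me3. Col13a1, a membrane collagen of the neuromuscular junction, went the other way, with 11 and 4, 8 and 7, and 5 and 11 H3K27me3 peaks and H4K8ac in SIT alone (3 and 1). Col17a1, of the skin's hemidesmosomes, had 1 H4K8ac peak.

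Among the collagens that sit on fibre surfaces (FACIT), Col22a1 and Col9a1 had the most H4K8ac peaks, 30 and 26, and Col20a1 the highest median share of the gene covered, 9.20% against 8.04% for Col9a1 and 3.14% for Col22a1. Col9a1 had 6 and 6, 3 and 4, and 2 and 5 H4K8ac peaks, covering 3.29% to 15.3% of the gene, and 1 H3K27me3 peak at an internal start in each of exercised SIT, sedentary left and sedentary right. Its neighbour Col19a1, known from hippocampal interneurons and 9.21 kb away, had 2 and 5, 1 and 2, and 0 and 2 H4K8ac peaks and no H3K27me3. Col22a1, of tissue junctions, had 9 and 7, 1 and 5, and 3 and 5 H4K8ac peaks beside 11 and 0, 4 and 3, and 0 and 4 H3K27me3 peaks, and its widest H4K8ac peak, 5122 bp in sedentary right, was the widest of any collagen gene. Col20a1 had 1 to 3 H4K8ac peaks in each list and no H3K27me3. Col12a1 and Col14a1, of dense connective tissue, had H3K27me3 at the start in all 6 lists (3 and 1, 1 and 1, and 2 and 1 peaks, and 10 and 3, 5 and 3, and 1 and 7) and 1 H4K8ac peak between them. Col9a2 had H3K27me3 in 5 lists, Col9a3 in 1, and Col16a1 had H4K8ac in 2.

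Type VI chains, which form beaded filaments around cells, differed in the mark they had. Col6a1 had H4K8ac, 3 and 2, 1 and 2, and 1 and 2 peaks, as did Col6a3, 3 and 3, 2 and 4, and 1 and 3. Col6a3 also had 2, 2 and 1 H3K27me3 peaks in exercised SIT, exercised right and sedentary right. Col6a2, 85.2 kb from Col6a1, had 1 H4K8ac peak in each of the exercised SIT and right lists, both outside the gene. In the cluster of Col6a4, Col6a5 and Col6a6 on chromosome 9, Col6a4 had 3 and 2, 1 and 1, and 0 and 1 H4K8ac peaks, Col6a5 had 2 and 2, 0 and 2, and 0 and 0, and Col6a6 had 1 H3K27me3 peak at its start in each of the 6 lists. H4K8ac overlapped Col6a6 in 5 lists without being assigned to it. H3K27me3 peaks of Col6a4 (1, exercised SIT) and Col6a5 (2 in exercised SIT, 1 in sedentary right) were confined to those lists. Col28a1 had H4K8ac in 4 lists and 1 H3K27me3 peak. The multiplexins Col15a1 and Col18a1, the latter the source of endostatin, had 1 or 2 H3K27me3 peaks in every list, and H4K8ac of 4 and 0, 0 and 1, and 0 and 3 peaks and of 2 and 2, 0 and 0, and 1 and 2. Col26a1 had 9 and 5, 9 and 5, and 2 and 11 H3K27me3 peaks and no H4K8ac.

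Counted over whole lists, the collagen genes did not move in the same direction with exercise in all 3 arms. In number of genes listed, exercised minus sedentary was 5 in SIT, -9 in left and -9 in right for H4K8ac (mean -4.33 ± 8.08 SD, n = 3 arms; exact two-sided sign-flip permutation test p = 0.5). For H3K27me3 it was 10, 2 and -8 (mean 1.33 ± 9.02, n = 3; exact p = 0.75). In percent of collagen gene bases covered it was 0.51, -1.01 and -1.40 percentage points for H4K8ac (mean -0.63 ± 1.01, n = 3; exact p = 0.5) and 5.11, 1.39 and -4.36 for H3K27me3 (mean 0.71 ± 4.77, n = 3; exact p = 0.75). With 3 arms this test cannot go below 0.25, and the Benjamini-Hochberg adjusted p was 0.75 for each of the 4 exact tests. The whole lists moved alike: exercised lists held 1.26 times the peaks of sedentary lists in SIT, 0.334 in left and 0.545 in right for H4K8ac, and 2.50, 1.26 and 0.454 for H3K27me3. With equal numbers of the widest peaks in both lists of an arm, the difference in genes listed for H4K8ac was 3, 3 and 1 (mean 2.33 ± 1.15, n = 3; exact p = 0.25, the smallest possible), the same direction in all 3 arms. For H3K27me3 it was -3, -2 and 2 (mean -1.0 ± 2.65, n = 3; exact p = 0.75). This setting keeps the shorter list of an arm whole and cuts only the longer one. The matching difference over all genes was not computed, so the direction cannot be called particular to collagens. The difference in percent of gene bases covered still took both signs under this setting, with 0.169, -0.231 and -0.561 percentage points for H4K8ac (mean -0.208 ± 0.366, n = 3; exact p = 0.5) and 3.14, 0.911 and -2.42 for H3K27me3 (mean 0.546 ± 2.80, n = 3; exact p = 0.75). The study's methods leave out exercised H4K8ac samples for a high false discovery rate, more of them from the separate isolations than from SIT. A figure legend that sets peaks of both marks against RNA changes gives 2 sedentary and 3 exercised mice, fewer than the 4 labelled per SIT group. Which samples entered the deposited lists is not given, so lists of either condition may rest on fewer samples than their groups hold. Sample removal and exercise cannot be told apart in these lists.

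**Figure D5:**
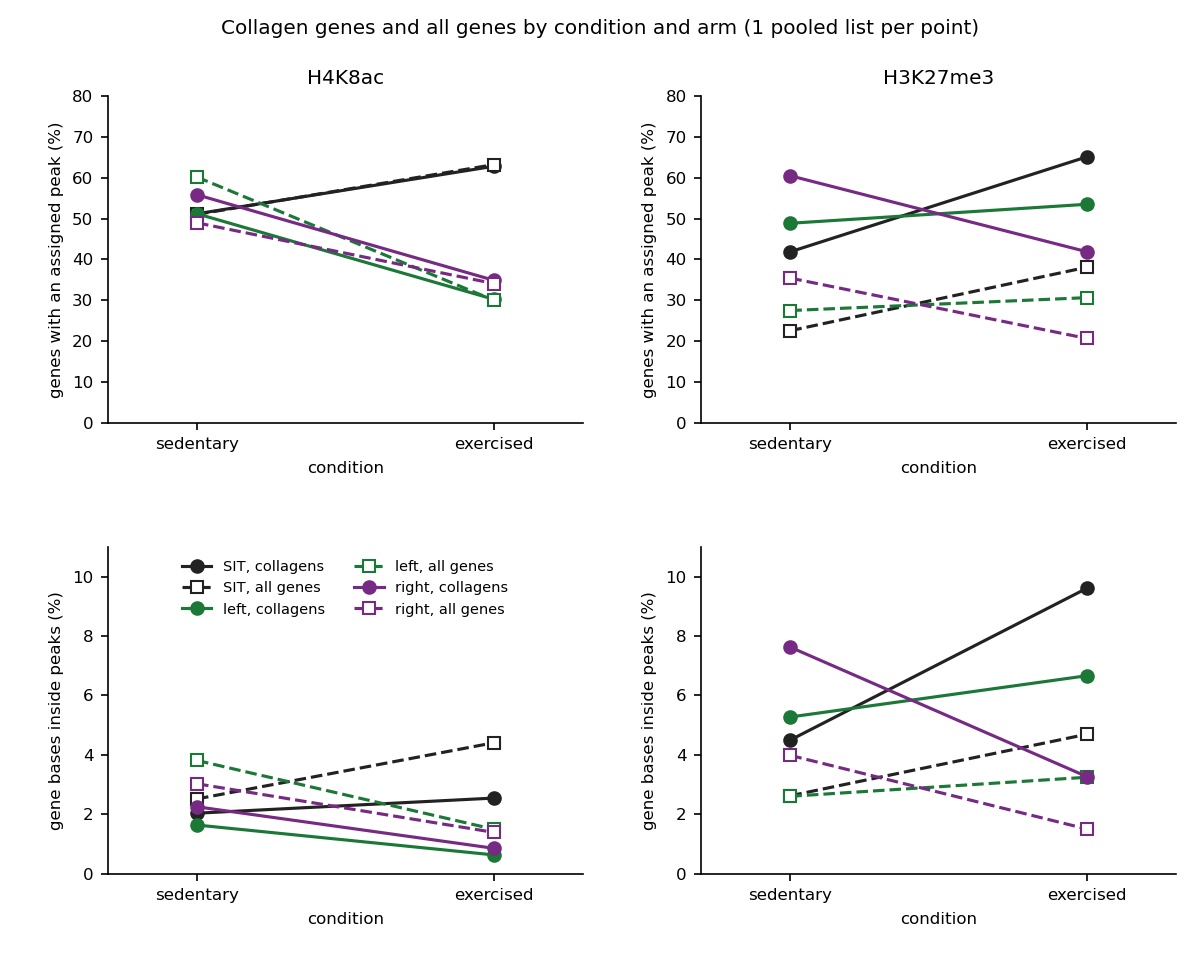
Sedentary and exercised values joined by arm for H4K8ac (left) and H3K27me3 (right): percent of genes with an assigned peak (top) and percent of gene bases inside peaks (bottom). Filled circles with solid lines are collagen genes, open squares with dashed lines are all genes, and each point is 1 pooled list with no error. Collagen lines slope with those of all genes in each arm, and for H3K27me3 each lies above the line of all genes of the same arm.

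Single genes gained or lost a listing in the following shares, set beside those of all genes. Of 29 collagen genes listed for H4K8ac in either SIT list, 7 were gained with exercise (24.1%, against 27.5% of all genes) and 2 lost (6.90%, against 10.1%). In the left arm 1 of 23 was gained (4.35%, against 3.58%) and 10 lost (43.5%, against 51.9%), and in the right arm 1 of 25 was gained (4%, against 9.14%) and 10 lost (40%, against 36.7%). The 7 gained in SIT were Col3a1, Col4a1, Col6a2, Col8a1, Col15a1, Col17a1 and Col27a1. Col3a1 and Col15a1 of these were lost in both other arms and Col6a2 was the 1 gained in the right arm.

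For H3K27me3, 10 of 28 collagen genes were gained in SIT (35.7%, against 41.4%) and 0 lost, against 1.02%. In the left arm 4 of 25 were gained (16%, against 18.5%) and 2 lost (8%, against 9.13%), and in the right arm 0 of 26 were gained, against 3.12%, and 8 lost (30.8%, against 43.6%). Col3a1 and Col5a3 were gained in both SIT and left, Col3a1 was in neither right list and Col5a3 was lost in right. No collagen gene changed in the same direction in all 3 arms for either mark, against 1.02% of genes for H4K8ac and 0.23% for H3K27me3.

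Within genes, the covered length moved with the lists as well. Of the 15 collagen genes with H3K27me3 inside the gene in all 6 lists, 12 had more covered bases in exercised than sedentary mice in SIT (80%, against 71.6% of such genes), 13 in left (86.7%, against 56.5%) and 1 in right (6.67%, against 4.04%). Col24a1 was covered over 48.8% and 19.6% in SIT, 30.8% and 26.6% in left and 15.3% and 32.9% in right. Of the 7 with H4K8ac inside the gene in all 6 lists, 6 had more in SIT (85.7%, against 87.5%), 1 in left (14.3%, against 15.2%) and 1 in right (14.3%, against 13.6%). The left arm's H3K27me3 share was the value furthest above that of all genes, on 15 genes and with no test.

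Both marks were listed at the same collagen gene most often in exercised SIT. There 17 of 43 collagen genes had both (39.5%, against 16.8% of all genes). The other exercised lists had 3 in left (6.98%, against 5.47%) and 5 in right (11.6%, against 4.49%). The sedentary lists had 8 in SIT (18.6%, against 7.71%), 9 in left (20.9%, against 10.9%) and 12 in right (27.9%, against 11.8%). The collagen share was the higher of the pair in all 6, with no test. Fibrillar collagens made up 8, 1, 2, 5, 6 and 4 of these in the same order. Peaks of both marks shared bases at 3 collagen genes, Col27a1, Col8a1 and Col3a1.

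Collagen peaks of the 2 marks were classed to different parts of genes, not always of the collagen gene itself. H4K8ac peaks of collagen genes were at promoters in 7.69% to 16.9% of cases by list, against 19.3% to 26.5% of all H4K8ac peaks, and in introns in 43.1% to 65.4%, against 34.6% to 40.1%. H3K27me3 peaks of collagen genes were at promoters in 23.4% to 35.3%, against 17.9% to 25.4%, and intergenic in 23.3% to 28.3%, against 41.3% to 46.7%. By list, 65.5% to 80.8% of H4K8ac peaks and 57.7% to 63.0% of H3K27me3 peaks overlapped the collagen gene they were assigned to. The class can come from another transcript: 84 of the 132 H3K27me3 peaks of Col8a1 were classed as intronic, though 110 lay outside its gene and flanks. Median widths were 1231 to 1785 bp for H4K8ac and 2925 to 4530 bp for H3K27me3, near those of all peaks (1265 to 1880 and 2861 to 4375 bp). After merging overlapping peaks of a mark, 6 of 157 H4K8ac regions of collagen genes had a peak in all 6 lists (3.82%, against 6% of all regions) and 35 of 149 H3K27me3 regions did (23.5%, against 16.7%). These 6 H4K8ac regions were at Col6a3 (2), Col9a1, Col6a1, Col20a1 and Col25a1, and the 35 H3K27me3 regions were spread over 15 genes, led by Col24a1 with 6 and Col1a2 with 5.

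The genes that process and bind collagen were counted from a set list. Of 28 processing genes, 22 were listed for H4K8ac (78.6%, against 79.9% of all genes) and 11 for H3K27me3 (39.3%, against 43.5%) in at least 1 list. In all 6 lists there were 3 for each mark (10.7%, against 19.3% for H4K8ac and 16.5% for H3K27me3): Adamts3, which trims procollagen, Pcolce2, which aids that trimming, and the cross-linking oxidase Loxl1 for H4K8ac, and Adamts2, Lox and Loxl2 for H3K27me3. Of 12 receptors, 8 were listed for H4K8ac (66.7%) and 7 for H3K27me3 (58.3%) in at least 1 list, with Itga11, Ddr1 and Adgrg6 in all 6 for H4K8ac and Itga1 and Adgrg6 for H3K27me3. Of the 4 small proteoglycans that bind fibrils, 3 were listed for H4K8ac (75%) and 1 for H3K27me3 (25%), and none in all 6.

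The labelled cell type was checked at marker genes by how many were marked in all 6 lists. For H4K8ac, 5 of 8 markers of Emx1-lineage excitatory neurons were listed in all 6 lists (62.5%, against 19.3% of all genes), with 1 of 6 inhibitory neuron, 1 of 4 astrocyte, 1 of 6 oligodendrocyte, 1 of 4 microglial and 4 of 9 endothelial, pericyte and fibroblast markers (44.4%; Pecam1, Pdgfrb, Rgs5 and Foxc1). For H3K27me3, 2 of 8 excitatory, 2 of 6 inhibitory, 3 of 4 astrocyte, 3 of 6 oligodendrocyte, 1 of 4 microglial and 3 of 9 vascular and fibroblast markers were listed in all 6, against 16.5% of all genes. The start was inside H3K27me3 in all 6 lists, against 4.24% of protein-coding genes, at 0 excitatory, 4 inhibitory (Gad2, Lhx6, Dlx1 and Slc32a1), 0 astrocyte, 2 oligodendrocyte, 0 microglial and 3 vascular and fibroblast markers (Twist1, Foxc1 and Cldn5). The role of other cells in the H4K8ac peaks of collagen genes was not tested.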

How the data were processed

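CUT&RUN peaks for H4K8ac and H3K27me3 were taken from the 12 lists deposited by the authors. According to the study's methods and processing notes, reads were checked with FastQC 0.11.9 and aligned to mm10 with Bowtie2 2.4.1. Peaks were called with SEACR on its stringent setting, keeping a fixed top share of peaks, and annotated with ChIPseeker 1.8.6. By the methods each peak went to the gene with the nearest start site unless it fell inside a gene. A peak within 3 kb of a start site counted as a promoter peak. In the lists some peaks inside a gene carry another gene's symbol, such as H4K8ac peaks inside Col6a6. How samples of a group were combined is not given in the sources used here. The deposited values are positions, widths and distances in bp, without score or count, so depth is unknown.

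From these, genes listed, peaks and covered bases were computed in Python 3 with numpy and pandas, gene bodies and starts coming from GENCODE on GRCm38, the build of the lists, and promoter windows from RefSeq (GRCm38.p6). Overlap meant at least 1 bp. Conditions were compared over 3 arms with an exact sign-flip permutation test (scipy) and Benjamini-Hochberg adjustment over 4 tests. Interval code was tested on simulated data. Collagen members, classes, partner genes and markers were chosen with earlier results of these data known. Named with values were fibrillar collagens, genes listed in all 6 lists of a mark or for both marks together, genes moving alike in 3 arms, genes with the widest or most peaks, Col3a1, Col25a1 and collagens within 100 kb of each other. Alternatives changed the peaks counted, the gene assignment, list length, chromosomes and arms. IgG samples were not analysed here, and 0 further columns of sample values were left out.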

Additional observations from a re-analysis of the deposited data

Results flagged for a closer look

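The exercised minus sedentary difference took opposite signs in different arms for both marks and both measures when whole lists were used. In collagen genes listed it was 5 in the SIT arm against -9 in the left and -9 in the right arm for H4K8ac, and 10 in SIT and 2 in left against -8 in right for H3K27me3. In percent of collagen gene bases covered it was 0.51 percentage points in SIT against -1.01 in left and -1.40 in right for H4K8ac, and 5.11 in SIT and 1.39 in left against -4.36 in right for H3K27me3. Each arm gives 1 pooled value per condition, so the difference between arms was not tested. With equal numbers of the widest peaks in both lists of an arm, H4K8ac gave 3, 3 and 1 genes, with no opposite sign, but its cover difference still took both signs (0.169, -0.231 and -0.561 percentage points), as did both measures for H3K27me3. The matching difference over all genes was not computed at this setting. List length moved with the values from whole lists. The exercised list was the longer one in SIT for both marks and in left for H3K27me3, and the shorter one elsewhere.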

How the results depend on the processing

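No paired analysis was possible because each list holds 1 pooled set of peaks and does not separate the samples, so the numbered samples could not be paired, conditions were compared within arms, and no sample could be left out in turn. The exercised minus sedentary differences depended on the peaks counted. With equal numbers of the widest peaks in both lists of an arm, the mean difference in collagen genes listed was 2.33 for H4K8ac (positive in all 3 arms) and -1.0 for H3K27me3, each opposite in sign to the value from whole lists, while the cover differences kept their sign (-0.208 and 0.546 percentage points). The same count over all genes was not computed. For H3K27me3 the mean difference in collagen genes listed was 0 with promoter peaks only, 0 with any peak overlapping the gene or its 3 kb flanks and -3.0 without the SIT arm. The difference in H3K27me3 cover was -2.25 percentage points within 3 kb of start sites and -1.48 without the SIT arm. The H3K27me3 difference between fibrillar and other collagens was 14.3 points with distal intergenic peaks left out, 9.61 by overlap and, in a setting chosen after seeing the data, 15.8 with peaks within 100 kb only. The H4K8ac difference turned to -8.90 without distal peaks and -12.0 by overlap. The cause was not tested, and 51 values from alternatives, the last 3 of these among them, kept their direction or moved by less than the spread between lists. With no read counts, a missing peak may be a missing mark or low depth.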
